A study of Mus musculus with 3 samples.

Results

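BMAL1 only peaks inside gene bodies are stretches of mouse liver chromatin where BMAL1 was called by ChIP-seq, which the authors classed as without CLK, and which lay within a transcribed unit away from its start. From the authors' table of 2127 peaks, a peak was taken when its class was BMAL1 only, when its centre lay between the start and the end of the gene assigned to it, and when the centre was more than 1000 bp from that gene's start site. This gave 496 of the 1368 BMAL1 only peaks. The remaining BMAL1 only peaks were 223 at promoters, within 1000 bp of a start site, and 649 outside the gene assigned to them. Those 649 are called between genes, or intergenic, below, but not all lay outside every gene. By the GENCODE M1 annotation 562 of their summits were outside every transcript, 70 in an intron and 17 in an exon. All 496 were found in the BMAL1 peak list with the same start and end. The peaks were thus chosen by the BMAL1 score that the caller required, by the lack of a called CLK peak and by their position, so their BMAL1 strength, the lack of a called CLK peak and their distance from the start site are given as descriptions, without a test. Sequence and the annotation of exons were not used to choose them. One of the 496, at Phf17, does overlap a CLK peak and was kept as the table classes it.

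The study immunoprecipitated liver chromatin of C57BL/6 mice, 3 to 6 months old under a cycle of 12 h light and 12 h dark, at ZT8, which is 8 h after lights on. One library was made with an antibody against CLK, another with an antibody against BMAL1, and the third, the Input, from chromatin without antibody. All 3 came from one liver extract and were amplified for 15 PCR cycles, so each group holds 1 library and no peak has a replicate. Mapped tags numbered 28920754 for BMAL1, 37371047 for CLK and 18846303 for the Input, and the tests below compare sets of peaks, not animals or conditions. The files hold no expression values, so the liver could not be checked against marker genes. The whole liver holds several cell types, and a weak peak in all cells cannot be told apart from a strong peak in a few.

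BMAL1 is a basic helix-loop-helix protein that pairs with CLK, and the pair activates clock genes and many output genes once per day. The complex binds e-boxes, short palindromes that occur at promoters and also in introns, where they can lie in enhancers. Introns of long genes make up a large share of the genome, so a peak inside a gene is not by itself a link to the transcription of that gene.

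The sequences below show what the strongest of these peaks look like at the base level. They are taken from the plus strand of NCBIM37 (mm9), span the BMAL1 summit and the e-boxes within 100 bp of it with 25 bp on either side, and carry the e-box CACGTG in capitals. The first set holds peaks of high score with 1 or 2 e-boxes.
Phf17 (chr3:41368941-41369027, intron): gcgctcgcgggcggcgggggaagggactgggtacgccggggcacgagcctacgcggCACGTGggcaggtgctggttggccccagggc
Nrg4 (chr9:55125479-55125611, intron): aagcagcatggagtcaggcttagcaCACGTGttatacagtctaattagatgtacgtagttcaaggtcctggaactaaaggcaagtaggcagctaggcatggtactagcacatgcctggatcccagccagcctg
Gpt (chr15:76528408-76528487, coding exon): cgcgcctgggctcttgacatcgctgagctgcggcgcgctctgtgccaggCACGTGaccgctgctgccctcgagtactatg
Atp9a (chr2:168546883-168546938, intron): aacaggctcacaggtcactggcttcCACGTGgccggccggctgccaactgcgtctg
Nfil3 (chr13:53070202-53070292, intron): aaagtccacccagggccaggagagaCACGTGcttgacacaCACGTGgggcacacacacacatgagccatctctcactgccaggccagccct
Fdft1 (chr14:63783791-63783884, intron): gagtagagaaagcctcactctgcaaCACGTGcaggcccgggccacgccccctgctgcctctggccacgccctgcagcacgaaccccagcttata
Smyd1 (chr6:71185259-71185320, intron): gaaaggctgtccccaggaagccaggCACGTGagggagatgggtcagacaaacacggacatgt

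The second set holds the 3 peaks with most e-boxes near the summit, each with 3.
Nr3c2 (chr8:79568912-79568987, intron): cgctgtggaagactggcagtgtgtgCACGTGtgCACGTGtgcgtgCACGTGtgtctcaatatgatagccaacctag
Smarca2 (chr19:26839995-26840089, intron): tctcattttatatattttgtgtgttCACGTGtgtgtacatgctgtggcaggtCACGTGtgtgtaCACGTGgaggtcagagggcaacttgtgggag
Aacs (chr5:125976151-125976296, intron): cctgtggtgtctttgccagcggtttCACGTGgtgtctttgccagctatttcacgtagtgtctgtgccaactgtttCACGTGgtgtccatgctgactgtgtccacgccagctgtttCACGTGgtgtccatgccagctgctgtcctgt
At Nr3c2 the e-boxes were separated by 2 and 6 bp and sat in a run in which purines and pyrimidines alternated, and at Smarca2 they were separated by 21 and 6 bp. At Aacs the gaps were 44 and 34 bp, and the bases around each e-box repeated. Their scores were 107.89, 74.19 and 62.02.

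The third set shows strong peaks without an e-box within 100 bp, with the nearest hexamer that differs from it at 1 position in capitals.
Lima1 (chr15:99670593-99670660, intron): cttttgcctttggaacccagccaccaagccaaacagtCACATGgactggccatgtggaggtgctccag
Usp2 (chr9:43894113-43894168, intron): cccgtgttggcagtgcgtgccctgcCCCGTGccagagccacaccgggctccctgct
Zmiz1 (chr14:26313690-26313745, intron): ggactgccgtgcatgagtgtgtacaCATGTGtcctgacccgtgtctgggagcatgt
At Lima1 the hexamer was CACATG, at Usp2 CCCGTG and at Zmiz1 CATGTG. Such hexamers are common, as the counts further on show, and a match describes the letters only.

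Most of the 496 peaks were weak. The score of a peak is 10 times the negative log10 of its MACS p-value, and peaks were called from a score of 50. The scores ran from 50.06 to 347.31 with a median of 57.29 (interquartile range 52.96 to 66.37), and 301 peaks (60.7%) had a score under 60. The median peak held 21 tags (range 14 to 117), had a fold enrichment over the local Input of 6.62 (3.33 to 17.69) and was 434 bp wide. Over all 1578 BMAL1 peaks the medians were a score of 59.45, 23 tags, a fold enrichment of 6.80 and a width of 466 bp. A score of at least 100 was reached by 22 of the 496 peaks (4.44%), against 14.8% of all BMAL1 peaks, and an FDR of at most 5% by 193 (38.9%), against 47.7%. BMAL1 only peaks at promoters had a median score of 69.34 and those between genes 56.45. The CLK:BMAL1 peaks inside gene bodies, which are sites where both proteins were called, had a median BMAL1 score of 128.06, and only 8 of the 496 peaks reached that value.

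The strongest peak lay in a coding exon of Pcsk4, a proprotein convertase of germ cells, with a score of 347.31, 117 tags and a fold enrichment of 11.1. It was 6037 bp from the start site used in the authors' table, but 35 bp from the start of another Pcsk4 transcript in GENCODE M1, one annotated as a retained intron. The next was in an intron of the transcript BC145649, with a score of 272.49, 82 tags and an enrichment of 10.04. Lima1, an actin-binding protein, held the third, with a score of 210.74, 45 tags and the highest enrichment of all 496 peaks, 17.69. Both Pcsk4 and BC145649 had an e-box near the summit and Lima1 had none.

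Below these in score, Nrg4, a secreted ligand of the epidermal growth factor family, had a score of 160.87 with 34 tags and an enrichment of 13.52. Gpt, the alanine aminotransferase that links amino acids to gluconeogenesis, had a score of 144.34 with 71 tags and an enrichment of 13.49, and its summit lay in a coding exon. Fdft1, the squalene synthase of cholesterol synthesis, had a score of 113.78 with 40 tags and an enrichment of 9.55. These 3 peaks had an e-box. The ion channel gene Itpr1, an inositol trisphosphate receptor, had a score of 116.02 with 30 tags and no e-box within 100 bp.

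Among the other peaks with an e-box were those at Atp9a, a P4-type ATPase (score 131.54), Hhipl1 (112.47) and Smyd1, a methyltransferase of muscle (112.2). Zfp771, a zinc finger protein (125.52), Bcl2l1, an inhibitor of apoptosis (112.15), Zmiz1, a transcriptional coregulator (109.52), and 4831426I19Rik (109.0) had no e-box within 100 bp. The peak in 3110082I17Rik (115.7) had 1. Of the 20 peaks of highest score, 12 held an e-box, as did 20 of the first 50, whereas 4 of the last 50 did.

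**Figure D1:**
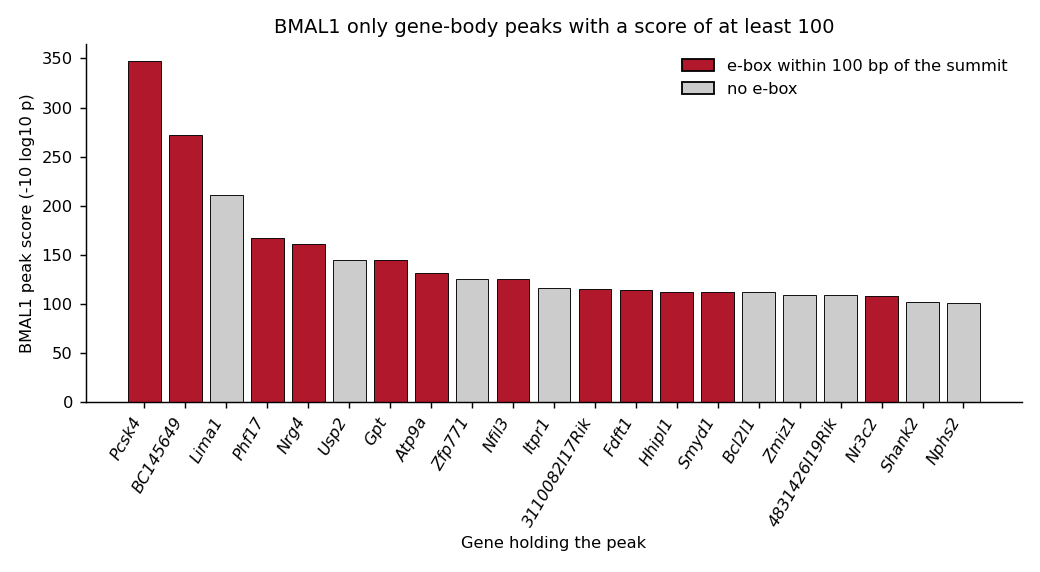
Bars give the BMAL1 peak score, on the y axis, of 21 of the 22 BMAL1 only gene-body peaks with a score of at least 100, ordered from highest to lowest, with the gene on the x axis and the bar colour showing whether an e-box lay within 100 bp of the summit. Pcsk4 stood highest at 347.31, Nr3c2 had 107.89, and 12 of the 21 bars mark a peak with an e-box.

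The limits of the rule cut through a continuous range. The 2 peaks just beyond 1000 bp were at Usp2 (1008 bp, score 144.73) and AK003943 (1018 bp, score 67.96), and the 2 inside a gene just short of it, counted as promoter peaks, were at Nanos1 (985 bp, score 76.04) and Loxhd1 (970 bp, score 58.98). The 2 peaks of lowest score were at Hs6st3 (50.07) and Grin3a (50.06). No peak under the score limit was listed.

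An annotated start site other than the one in the table was close to some of the peaks. In GENCODE M1, 39 of the 496 summits (7.86%) lay within 1000 bp of a transcript start. They included Phf17 (164 bp), Sec24a, a coat protein of secretory vesicles (37 bp), Herpud1, an endoplasmic reticulum stress protein (16 bp), and Ankrd24 (17 bp). The peak in 3110082I17Rik was 59 bp from the start of Gpr146, a receptor gene nested in it. These 39 peaks had a median score of 67.02 and 17 of them (43.6%, 95% interval 27.8 to 60.4) had an e-box, against 85 of the other 457 (18.6%, 15.1 to 22.5).

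The first tested question was whether the e-box was more frequent at the summits than beside them. CACGTG, which reads the same on both strands, was found within 100 bp of the summit in 102 of 496 peaks (20.6%, 95% interval 17.1 to 24.4) and in the sequence 400 to 500 bp away on both sides in 13 (2.62%, 1.40 to 4.44). In 97 peaks it was at the summit only and in 8 in the flanks only (two-sided exact McNemar test, p = 1.50e-20). Over all BMAL1 only peaks the share at the summit was 22.0%. The summit windows had a median GC content of 51.2% and the flanks 43.6%. Among the 146 peaks whose summit and flanks differed by at most 5 points of GC, the shares were 23.3% and 4.79% (exact McNemar test, p = 7.43e-06). The median distance from the summit to the nearest e-box was 28.0 bp, and in 46 of the 102 peaks it was at most 25 bp.

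At least 2 e-boxes were present in 13 peaks and 3 in 3 of them. Apart from Nr3c2, the mineralocorticoid receptor, Smarca2, a chromatin remodelling ATPase, and Aacs, the acetoacetyl-CoA synthetase, the peaks with several included Nfil3, whose e-boxes were 9 bp apart. Ppara, the receptor for fatty acids that drives their oxidation, had 2 e-boxes 56 bp apart (score 67.26, 36 tags), and Klb, the co-receptor of endocrine fibroblast growth factors, had 2 that were 59 bp apart (score 70.5, 21 tags). The tandem arrangement known from clock gene promoters is an e-box and a second e-box or hexamer with 1 mismatch, separated by 6 or 7 bp. It was found in 7 of the 496 peaks and in 25 of all 1368 BMAL1 only peaks. In CLK:BMAL1 gene-body peaks it was found in 10 of 75. Since it needs an e-box, its count also depends on the e-box share of each set.

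The e-box share was then compared with that of the 3 most similar sets of peaks by two-sided Fisher's exact tests, with Benjamini-Hochberg adjustment over the 3 pairs. It was lower than at BMAL1 only promoter peaks, where 118 of 223 (52.9%, 46.1 to 59.6) had an e-box (odds ratio 0.231, 95% interval 0.161 to 0.329, Fisher's exact test, adjusted p = 5.99e-17). It was higher than at BMAL1 only peaks between genes, with 81 of 649 (12.5%, 10.04 to 15.3; odds ratio 1.81, 1.304 to 2.53, Fisher's exact test, adjusted p = 0.000244). It was lower than at CLK:BMAL1 peaks inside gene bodies, with 47 of 75 (62.7%, 50.7 to 73.6; odds ratio 0.155, 0.0887 to 0.266, Fisher's exact test, adjusted p = 8.20e-13).

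**Figure D2:**
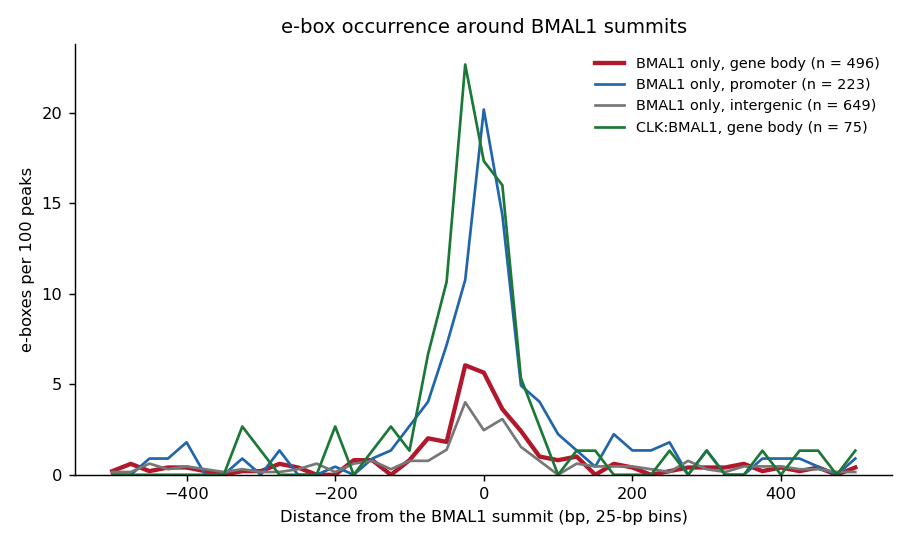
Lines give the number of e-boxes per 100 peaks, on the y axis, in 25-bp bins of distance from the BMAL1 summit, on the x axis, for 4 sets of peaks. In BMAL1 only gene-body peaks the highest bin held 6.05 e-boxes per 100 peaks, against 20.2 at promoters, 4.01 between genes and 22.7 in CLK:BMAL1 gene-body peaks, and at 200 bp or more from the summit no bin of the gene-body set exceeded 0.605.

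The differences were also taken within ranges of score and of base composition. With a score under 100, the share was 19.0% in gene bodies, 50.6% at promoters, 9.56% between genes and 52.0% in CLK:BMAL1 gene-body peaks, and all 3 pairs still differed (Fisher's exact test, adjusted p = 3.43e-14, 1.68e-05 and 0.000351). With a score of at least 100, the shares were 54.5% of 22, 61.2% of 49, 68.8% of 32 and 68.0% of 50, and no pair passed (Fisher's exact test, adjusted p = 0.612, 0.587 and 0.587), with the order of gene bodies and intergenic peaks turned round. With an FDR of at most 5% the difference from intergenic peaks, 29.5% against 22.7%, did not pass either (Fisher's exact test, adjusted p = 0.142). Promoter windows had a median GC content of 65.7%, gene-body windows 51.2% and intergenic windows 50.7%. Within 45 to 55% GC, 15.0% of gene-body peaks and 24.1% of the 29 remaining promoter peaks had an e-box (Fisher's exact test, adjusted p = 0.189), whereas the difference from intergenic peaks, of which 9.57% had one, still passed (Fisher's exact test, adjusted p = 0.0332).

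Along the range of scores the e-box share in gene bodies was 14.3% for scores of 50 to 55 (28 of 196), 15.2% for 55 to 60 (16 of 105), 28.2% for 60 to 75 (37 of 131), 21.4% for 75 to 100 (9 of 42) and 54.5% for 100 and over (12 of 22). The intervals of neighbouring ranges overlapped, and that of the highest range, 32.2 to 75.6%, lay above those of both ranges under 60. In intergenic peaks the share went from 6.07% to 68.8% over the same range.

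**Figure D3:**
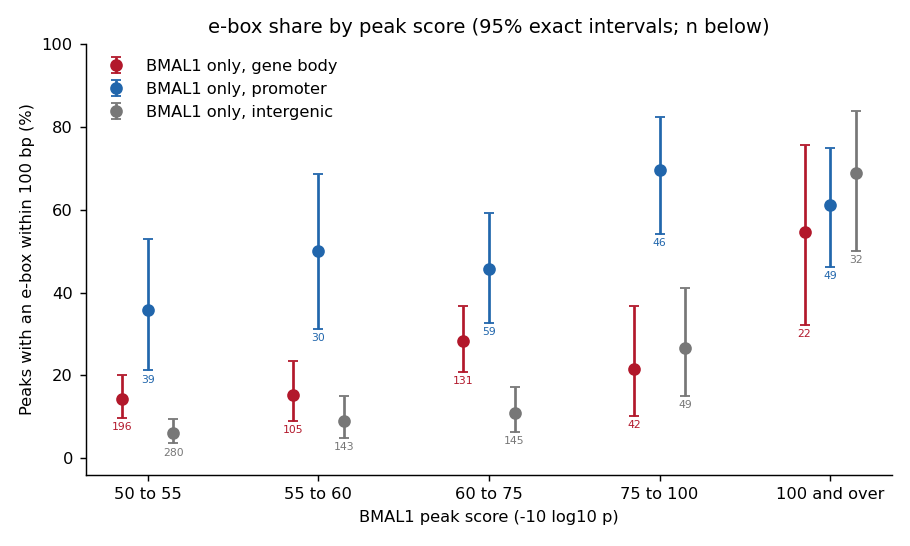
Points give the share of BMAL1 only peaks with an e-box within 100 bp of the summit, in percent on the y axis, in 5 ranges of peak score on the x axis, for peaks in gene bodies, at promoters and between genes. Bars are exact 95% intervals and the small numbers are peaks per point. The gene-body share was 14.3% in the lowest range and 54.5% in the highest.

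Of the 394 peaks without an e-box, 244 had a hexamer within 100 bp that differs from CACGTG at 1 position, which was 49.2% of all 496 peaks, and 150 (30.2%) had neither. In these 394 peaks CAGGTG, on either strand, was found near 24.9% of the summits and in 14.2% of the flanks, and CATGTG near 23.9% and in 14.2%. CGCGTG was found near 13 summits and in 1 flank. TACGTG was the only single-mismatch hexamer that was rarer at the summits, with 7 against 12 peaks. These counts were not tested. With 1 mismatch allowed, and peaks with an e-box included, 69.8% of all 496 peaks matched at the summit and 47.0% in the flanks. The summits were richer in GC than the flanks. The counts of hexamers with a mismatch were not repeated in peaks with similar GC at both.

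Other short motifs of clock and liver factors were searched on both strands in the same windows, 14 with the e-box. An adjusted p under 0.05 was reached by 3 (exact McNemar tests, Benjamini-Hochberg over the 14). The nuclear receptor motif AGGTCA (a single repeat of the receptors' paired site), bound by receptors such as REV-ERB and ROR, was at 87 summits (17.5%) and in 47 flanks (9.48%; exact test, adjusted p = 0.00181). It was near 15.9% of all 2127 summits of the table. The single-repeat motif TTGGCA of the nuclear factor I family was at 82 summits (16.5%) and in 48 flanks (9.68%; exact test, adjusted p = 0.0114), and near 14.2% of all summits. Among peaks with similar GC at summit and flanks, AGGTCA was at 19.2% and 10.3% and TTGGCA at 15.8% and 9.59%, and neither passed in those 146 peaks (exact McNemar tests, adjusted p = 0.373 and 0.555). AGGTCA was at 28 of the 102 summits with an e-box (27.5%) and at 59 of the 394 without (15.0%). In the flanks of these peaks it was found in 7.84% and 9.90%. AGGTCA and CACGTG can share bases, as at Smarca2, and such a match was counted for both. The difference between peaks with and without an e-box was not tested.

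The GC box GGGCGG was at 6.45% of summits and 3.23% of flanks (exact McNemar test, adjusted p = 0.0581). In BMAL1 only promoter peaks it was at 58.3% of summits and 31.8% of flanks. The e-prime-box CACGTT, a weaker target of the same complex, was at 5.85% of gene-body summits and 3.02% of their flanks (exact McNemar test, adjusted p = 0.137). The D-box TTATGNAA, bound by NFIL3, HLF and related proteins, was at 18 summits and in 16 flanks. The C/EBP site TTGCNNAA was at 44 summits and in 44 flanks. The FOXA words TGTTTAC and TGTTTGC were at 20 and 21 summits and in 12 and 24 flanks, and the HNF4 word CAAAGTCCA at 5 summits and in 1 flank. The remaining words, for CRE (TGACGTCA), AP-1 (TGANTCA), the glucocorticoid receptor (ACANNNTGT) and ETS proteins (CCGGAAG), were at 2, 33, 49 and 6 summits and in 2, 26, 32 and 4 flanks.

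**Figure D4:**
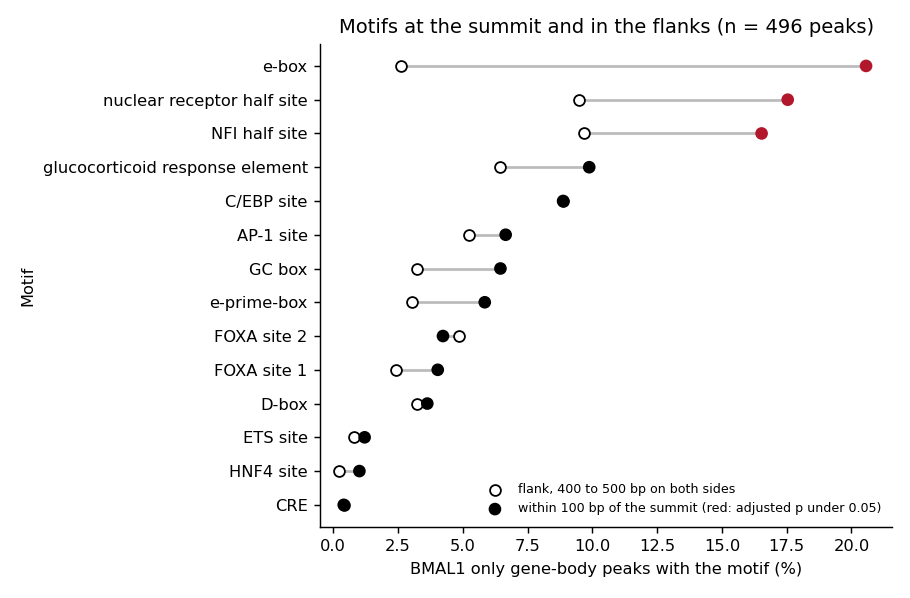
Filled points give the share of the 496 peaks with each motif within 100 bp of the summit, open points the share with it 400 to 500 bp away, in percent on the x axis with 1 motif per line of the y axis. The e-box differed most (20.6% against 2.62%), and the nuclear receptor and NFI motifs are the other points in red, which marks an adjusted p under 0.05.

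Within genes the peaks were mainly intronic. By GENCODE M1, with exons taking precedence, 409 summits (82.5%) were in an intron, 42 (8.47%) in a coding exon, 20 in an untranslated region, 8 in a non-coding exon and 17 outside every transcript of that annotation. An exon of any kind held 70 summits (14.1%, 95% interval 11.2 to 17.5). In CLK only gene-body peaks, which are sites where CLK alone was called, 31 of 214 (14.5%, 10.1 to 19.9) were exonic, and in CLK:BMAL1 gene-body peaks 11 of 75 (14.7%, 7.56 to 24.7). By Fisher's exact test neither difference passed (two-sided, both with an adjusted p = 0.907). The intervals of the odds ratios, 0.603 to 1.59 and 0.470 to 2.11, leave room for differences of either sign. The e-box share was 20.5% at introns (84 of 409) and 23.8% at coding exons (10 of 42).

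The genes that held these peaks were long, and the peaks were spread along them. The rule favours long genes, since a peak centre had to lie inside the gene and over 1000 bp from its start. Gene length is therefore given as a description. The median length was 87809 bp, close to the 87741 bp of CLK only gene-body peaks, against 39884 bp for CLK:BMAL1 gene-body peaks and 15164 bp for the genes of BMAL1 only promoter peaks. The median distance from the start site was 35518 bp (range 1008 to 907544). Counted from start to end in 5 equal parts of the gene, 91, 100, 92, 107 and 106 peaks fell in each. The e-box share was 33.9% at 1000 to 5000 bp from the start (20 of 59) and 12.1% beyond 100000 bp (15 of 124). In the ranges between it was 19.3% (5000 to 10000 bp), 21.5% (10000 to 50000 bp) and 22.8% (50000 to 100000 bp). In genes shorter than 20000 bp it was 28.8% (19 of 66) and in genes over 200000 bp 11.4% (13 of 114). These shares were not tested. Of the 1145 BMAL1 only peaks over 1000 bp from the start site, 49.4% had the summit inside a GENCODE transcript, and such transcripts cover 39.99% of the assembly, unsequenced bases included.

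**Figure D5:**
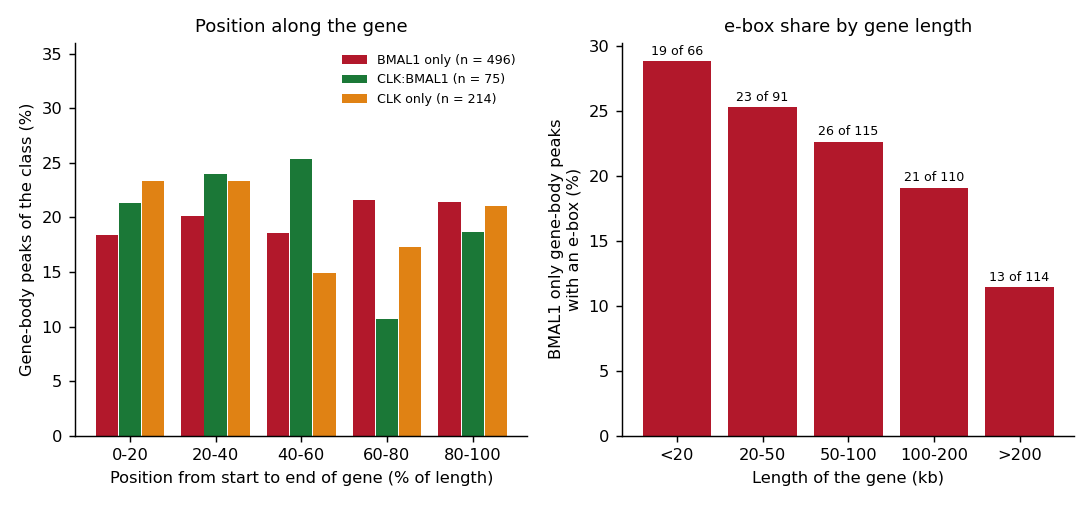
The left panel gives the percent of gene-body peaks of each class, on the y axis, in 5 equal parts of the gene from start to end, on the x axis, and the right panel the percent of BMAL1 only gene-body peaks with an e-box by length of the gene in kb. BMAL1 only peaks filled the 5 parts about evenly, with 91 to 107 peaks in each, and the e-box share was 28.8% in the shortest and 11.4% in the longest genes.

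The 496 peaks fell in 475 genes, and 21 genes held 2 each. These were Cntnap4, Syt16, Tbcel, Nrxn3, Wwc2, Ppp1r13b, Spag16, Gpr125, Lrrc7, 9530036O11Rik, Acap2, Grik1, Dlgap2, Lhfp, Zfp407, Csmd1, 3110082I17Rik, Ctnnd2, Hs6st3, Lrrk2 and Zmiz1. Their median length was 270156 bp, and 18 of them were longer than 100000 bp, as were 206 of all 475 genes. Nrxn3 encodes a neurexin, Grik1 a kainate receptor subunit and Dlgap2 a scaffold protein of the postsynaptic density. The summits of a pair were 1423 bp apart in Spag16 and 71662 bp apart in the median gene. In all genes over 200000 bp, 13 of 114 BMAL1 only gene-body peaks (11.4%) had an e-box. In all genes of 100000 to 200000 bp, 21 of 110 (19.1%) had one. Of the 42 peaks in genes that held 2 each, 6 had an e-box. Ppp1r13b, a p53-binding regulator of apoptosis, was the single gene with an e-box in both (scores 69.44 and 51.77). Grik1 (54.89 and 50.15), Csmd1 (61.99 and 54.68) and Wwc2 (54.16 and 53.06) had none.

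Called CLK peaks were distant from almost all of them, as from the other BMAL1 only peaks. Over all 1368 BMAL1 only peaks the median gap to the nearest CLK peak was 953514 bp. Of these, 30 had a CLK peak within 10000 bp and 7 within 1000 bp. In gene bodies the median gap was 882795 bp, and 8 of the 496 peaks had a CLK peak within 10000 bp and 3 within 1000 bp. One, at Phf17, a PHD finger protein of a histone acetylation complex, shared 352 bp with a CLK peak of score 115.44 and 69 tags although it is listed as BMAL1 only. It had a BMAL1 score of 167.59 with 45 tags and an enrichment of 14.11. The peak at Gm14164 (score 61.48, 25 tags) was 364 bp and that at Alas1 (58.71, 34 tags) 290 bp from a CLK peak. All 3 had an e-box. The lack of a CLK peak means only that none passed the caller's cutoff, since CLK signal below it was not analysed here.

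The 13 genes that also held a CLK:BMAL1 peak were Phf17, Gm14164, Alas1, Itpr1, Dlgap2, Mical3, Eepd1, Myo10, Hpn, Tm2d1, Zfp407, Hlf and Epb4.1l4b. Hpn, the liver serine protease hepsin, had a score of 60.35 and no e-box, with a CLK peak 7947 bp away. Mical3, a regulator of actin filaments, had a score of 57.16 and 1 e-box, and Eepd1, an endonuclease family protein (57.14), Myo10, an unconventional myosin (56.6), Tm2d1 (55.38) and Epb4.1l4b (50.1) had none. In 22 genes there was also a CLK only peak, and in 5 a BMAL1 only peak at the promoter. Among all 1886 genes of the table, CLK:BMAL1 peaks were assigned to 71 in gene bodies, 73 at promoters and 61 between genes. CLK only peaks were assigned to 197, 54 and 272, and BMAL1 only promoter peaks to 221. The same gene can appear in several of these counts, and the overlaps were not tested.

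Clock and clock-output genes held 5 of the peaks. Of 48 genes listed, 26 had a peak of any class in the table, 17 of them a CLK:BMAL1 peak and 5 a BMAL1 only gene-body peak (19.2%). Over all genes of the table, 475 of 1886 (25.2%) had one. Usp2, a deubiquitinase under clock control, had the strongest, with a score of 144.73, 83 tags and an enrichment of 10.49 and no e-box within 100 bp. Nfil3, a repressor at D-boxes, had a score of 125.43, 39 tags, an enrichment of 12.15 and 2 e-boxes. Alas1, the first enzyme of haem synthesis, and Hlf, a D-box activator (52.8, 30 tags), had 1 e-box each. Rorb, a nuclear receptor that acts on the same elements as REV-ERB, had a score of 53.0 with 20 tags in a coding exon and no e-box.

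Nuclear receptor genes held 7 peaks, in 7 of the 16 listed genes with any peak (43.8%), against 25.2% of all genes of the table. The difference was not tested. Nr3c2 was the highest (57 tags, enrichment 10.1). Nr1h4, the bile acid receptor FXR, followed with a score of 80.58 and 23 tags, then Esr1, the oestrogen receptor alpha, with 69.59 and 19 tags, and Ppara. The remaining ones were Esrrg (62.63), Nr2f2 (55.02, in a coding exon with 2 e-boxes) and Rorb. An e-box was present in 3 of the 7, at Nr3c2, Ppara and Nr2f2.

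Genes of glucose and lipid metabolism held 5 peaks, in 5 of 24 listed genes with any peak (20.8%), against 25.2% of all genes of the table. Mlxipl, the glucose-responsive factor ChREBP, had a score of 79.99 and 38 tags. Ppargc1b, a coactivator of mitochondrial and lipid genes, had 79.25 and 46 tags, and Slc2a2, the glucose transporter GLUT2 of hepatocytes, 68.96 and 28 tags. Elovl5, a fatty acid elongase, had 66.99 and Irs1, an adaptor of the insulin receptor, 65.78, and only the peak at Irs1 had an e-box. Liver transcription factors held 4, in 4 of 14 genes (28.6%). These were Onecut2 (78.36), Nfia (68.58, 1 e-box), Zbtb20 (58.77, with the lowest enrichment of the 496 peaks, 3.33) and Gata4 (57.48).

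Of 78 genes highly transcribed in liver, 19 had a peak of any class. None of them held a BMAL1 only gene-body peak, against 475 of all 1886 genes of the table (25.2%). The rule favours long genes, and gene length was not taken into account in this count. Another BMAL1 only peak was held by 3, a CLK:BMAL1 peak by 5 and a CLK only peak by 17. The numbers of all genes with CLK:BMAL1 and CLK only peaks are given above by position. Those numbers can overlap, so they give no single share to set beside the 5 and the 17. None of these counts was tested.

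Further families were found by the start of the gene symbol alone, which misses genes of the same function under other names, such as Lima1 for the cytoskeleton and the tyrosine kinase gene Jak1 (score 85.11, 1 e-box), so the counts and orders hold for those symbols only. For comparison, 25.2% of all genes of the table held such a peak, and 20.6% of the 496 peaks had an e-box. The family counts were not tested. Solute carriers held 11 peaks in 11 of 43 genes with any peak, led by Slco4c1 (78.37), Slc2a2, Slc38a4 (63.41) and Slc9a9 (57.48), and none had an e-box. Zinc finger and Kruppel-like factors held 8 peaks in 7 of 27 genes, led by Zfp771, Zfp710 (68.97), Zfp91 (66.23) and Zbtb20. Genes of the ubiquitin system held 10 in 10 of 29, led by Usp2, Fbxo36 (74.59), Fbxl5 (69.76) and Rnf115 (64.35). Symbols listed for kinases and phosphatases held 6 in 5 of 27, led by Cdk14 (70.55), Ppp1r13b and Ptprb (55.39). GTPase regulators held 9 in 9 of 24, led by Tbc1d10a (71.7), Rab27a (68.75), Tbc1d5 (68.69) and Asap1 (63.4). Symbols listed for cytoskeleton and adhesion held 15 in 14 of 30, led by Kif6 (67.46), Ctnna3 (62.32), Cdh4 (59.38) and Dnahc8 (58.99), with 1 e-box among the 15, at Col4a3bp, which is not a collagen but a lipid transfer protein. Drug metabolism held 2 in 2 of 7, Cyp17a1, a steroid hydroxylase (70.16, 1 e-box), and Abcb10, a mitochondrial transporter (58.98).

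None of the 496 peaks was on the X chromosome, which held 8 peaks of the whole table, 4 of them BMAL1 only.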

How the data were processed

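Liver chromatin at ZT8 was measured in 3 libraries (CLK ChIP, BMAL1 ChIP and Input, 1 each, without replicates). The authors processed reads with CASAVA 1.6, mapped them to mm9 with Bowtie and called peaks with MACS, each ChIP against the same Input, with a p-value cutoff of 1e-05, a tag size of 36 and a band width of 80 per the file headers. The deposited lists give a count of tags per peak, a score (10 times the negative log10 of the p-value), a fold enrichment (the ratio of ChIP signal to local Input) and an FDR in percent. A deposited table gives each peak's class and gene. The depth was 25217144 (BMAL1), 33057959 (CLK) and 18206506 (Input) tags after the removal of duplicates. PCR copies are not independent molecules. The exact 95% Clopper-Pearson intervals are on counts of peaks of 1 library, taken as independent, and cover counting error only.

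Peaks were selected from the table and joined to the BMAL1 list by coordinates. CLK:BMAL1 peaks were centred on the summit of the overlapping BMAL1 peak (at least 1 bp). Sequences came from NCBIM37, in which every peak lay within its chromosome, and features from GENCODE M1. Shares were compared with exact McNemar and Fisher's tests (two-sided, scipy 1.17.1, Python 3.11.15). The e-box search was checked on simulated sequences with planted e-boxes, which does not check the tests. Adjustment was by Benjamini-Hochberg. The flank window was 400 to 500 bp from the summit.

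The peaks, gene lists, motifs and tests were chosen with earlier results of these data known. Named were the 20 peaks of highest score, all peaks at listed clock genes, genes with at least 2 of these peaks or with a CLK:BMAL1 peak, the 3 peaks with most e-boxes, the 2 on either side of each limit and up to 4 peaks per other list. One peak that this rule names is not reported here, and it is counted in all totals. Peaks near another annotated start, with 2 e-boxes or at the extremes of enrichment, and the rest of the 7 nuclear receptor and 5 metabolic genes, Jak1 and Col4a3bp, were named after their values were seen. Alternatives covered the window, score, FDR, centre, 1 peak per gene, the promoter limit (5000 bp), 1 mismatch, nearby CLK peaks and the annotation, and, chosen after seeing the data, other annotated starts, GC content and scores under 100.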

Additional observations from a re-analysis of the deposited data

How the results depend on the processing

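Libraries could not be paired across replicates because each group holds 1 library. Only summit and flank were paired, within each peak. Of 56 values under alternative settings, 41 kept their direction and their side of the threshold. Tested on its own, the e-box difference between summit and flank passed under all settings tried for it, between 13.0 and 45.5 percentage points. With a score of at least 100, the differences of gene bodies from promoters (-6.68 points) and from CLK:BMAL1 peaks (-13.5) did not pass, and that from intergenic peaks turned to -14.2. With only 22 gene-body peaks left, the smaller number of peaks is part of that setting. With an FDR of at most 5% the difference from intergenic peaks was 6.85 points and did not pass, and with 45 to 55% GC (chosen after seeing the data) that from promoters was -9.17 and did not pass.

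The number of motifs that passed, adjusted over all 14, went from 3 to 2 with the 50 bp window in all 496 peaks, where the NFI motif did not pass (7.86% against 5.85%, exact McNemar test, adjusted p = 0.625). It went to 0 with a score of at least 100, the e-box included (exact McNemar test, adjusted p = 0.0889), and to 1, the e-box, with similar GC at summit and flank (chosen after seeing the data). The last of these used 146 peaks and the one before it 22. The exon differences, which passed under no setting, changed sign. Against CLK only peaks they were 0.690 points at the peak centre, 0.103 with 1 peak per gene, 0.361 with a promoter limit of 5000 bp and 1.75 in protein-coding transcripts. Against CLK:BMAL1 peaks they were 0.231 with 1 peak per gene, 8.28 with the 5000 bp limit, 4.18 with a score of at least 100 and 1.83 in protein-coding transcripts. At a median of 21 tags per peak, without a replicate, the rank of single peaks near the cutoff is poorly set.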
